A study of Drosophila melanogaster with 4 samples.

Results

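Circular RNAs (circRNAs) of 5 signalling enzyme genes of the fruit fly Drosophila melanogaster were examined in ribosome footprinting data from heads. The genes were Pde1c, Pde6, Pde8, for (called foraging here) and CaMKI. A circRNA is an RNA ring without ends, which forms when splicing joins the 3′ end of an exon to the 5′ end of that exon or of one upstream (back-splicing). The circRNAs were those whose name in the deposited table carried one of these 5 symbols or a RefSeq accession of one of these genes. Both ways found the same 15 circRNAs, out of 2563 listed. Positions are those of the table in the dm3 genome build, read as counting from 0 at the first coordinate and printed counting from 1. Exons, codons and introns are those of Ensembl gene models on the later build BDGP6, tied to a circRNA by equal length and not by position.

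In ribosome footprinting, a nuclease removes RNA that ribosomes do not cover, and the fragments left are sequenced. The study had 4 libraries from whole heads, 2 labelled low detergent and 2 labelled high detergent, and the labels gave no strain, sex, age or genotype. The protocol text described head samples 1 and 2, homogenized by an earlier published method, and head samples 3 and 4, for which 200 frozen heads were lysed in 500 µl of buffer with 0.1% Triton X-100. It did not say which of these were the low detergent libraries, so the table's 4 columns per library were not used and the buffers were not compared. All counts here are the authors' counts over all samples together, with no replicate error. The table does not say where its reads lie, and they were assumed to span the back-splice.

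Pde1c, Pde6 and Pde8 encode cyclic nucleotide phosphodiesterases, which end cAMP or cGMP signals by hydrolysing the messenger. Pde1c belongs to the class that calcium and calmodulin activate, Pde6 acts on cGMP and Pde8 on cAMP. The foraging gene encodes a cGMP-dependent protein kinase known for its natural variants in fly foraging behaviour. CaMKI encodes a protein kinase that calcium-bound calmodulin activates. In class I phosphodiesterases the catalytic domain lies toward the C-terminal end, behind regulatory regions. In cGMP-dependent kinases the cGMP-binding regulatory part comes before the catalytic part, whereas in CaMKI the kinase domain comes before the calmodulin-binding segment.

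A total of 230 reads fell on the listed circRNAs, and 122 circRNAs (4.76%) had at least 1. Of the 48 other cyclic nucleotide and calcium signalling genes on a list described further on, 22 had a listed circRNA. Listed circRNAs were present for 5 of 7 neuronal, 2 of 6 photoreceptor and 3 of 5 glial marker genes. The same held for 4 of 4 muscle and 2 of 4 fat body marker genes. The reads on the circRNAs of these markers were 28, 0, 1, 0 and 0 in that order. All 28 neuronal reads lay on 1 of 27 neuronal circRNAs. Most listed circRNAs had 0 reads, so the listing of a marker does not check the tissue of these libraries. In whole heads, fewer cells of a type and less RNA per cell cannot be told apart.

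Footprint reads were found on 2 of the 15 circRNAs, from Pde6 and foraging, with 1 read each. The other 13, including all 5 of Pde1c, all 3 of Pde8 and all 4 of CaMKI, had 0 reads. None of the 15 had at least 2 reads, which 1.01% of all listed circRNAs had. The share with a read was 13.3% (95% exact binomial interval 1.66% to 40.5%), and the 4.76% over all listed circRNAs lies inside this interval. The 2 reads were 0.870% of all 230 (exact binomial interval 0.105% to 3.11%). A count of 1 has a 95% exact Poisson interval from 0.0253 to 5.57 and a count of 0 one from 0 to 3.69. The circRNAs with a read therefore cannot be told from those without at this depth, and 96 of all listed circRNAs likewise had exactly 1 read. By the one-sided limit of 3 reads, which is lower than the upper end of the two-sided interval, a count of 0 allows up to 1.30% of the total. Intervals and this limit cover counting error only. The interval for the share of circRNAs also takes the 15 as independent, although 11 of them share an end with another.

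The circRNA of foraging lies on chromosome 2L from 3638939 to 3640517 and had 1 read. It was the only circRNA listed for this gene, as for 657 of the 1191 host genes in the table. Its span of 1579 bp equalled the length of a single annotated exon, which is exon 2 or 3 in the 3 transcripts that hold it. This exon carries 62 untranslated bases, followed by 1517 coding bases that begin with the start codon. It thus holds codons 1 to 506 of 1088, the last in part, or 46.5% of the coding sequence. All 3 of these transcripts, out of 13 annotated for the gene, place the start codon inside the ring, and none places the stop codon there. By the order of domains given above, the ring begins at the regulatory end of the kinase, although no residue was located here.

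The Pde6 circRNA with 1 read lies on chromosome 3R from 10354899 to 10355952. Its 1054 bp equalled a single exon, exon 3 of 14 in each of the 3 annotated transcripts. The exon carries 439 untranslated bases followed by 615 coding bases, which are exactly codons 1 to 205 of 1118 or 1124. That is 18.2% to 18.3% of the coding sequence, a smaller part than the 46.5% in the ring of foraging. The other Pde6 circRNA, on 3R from 10348876 to 10349444, had 0 reads and spans 569 bp. It matched exons 5 and 6, which hold codons 294 to 464 and no start codon. The 2 Pde6 circRNAs share no end and lie 5454 bases apart.

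**Figure D1:**
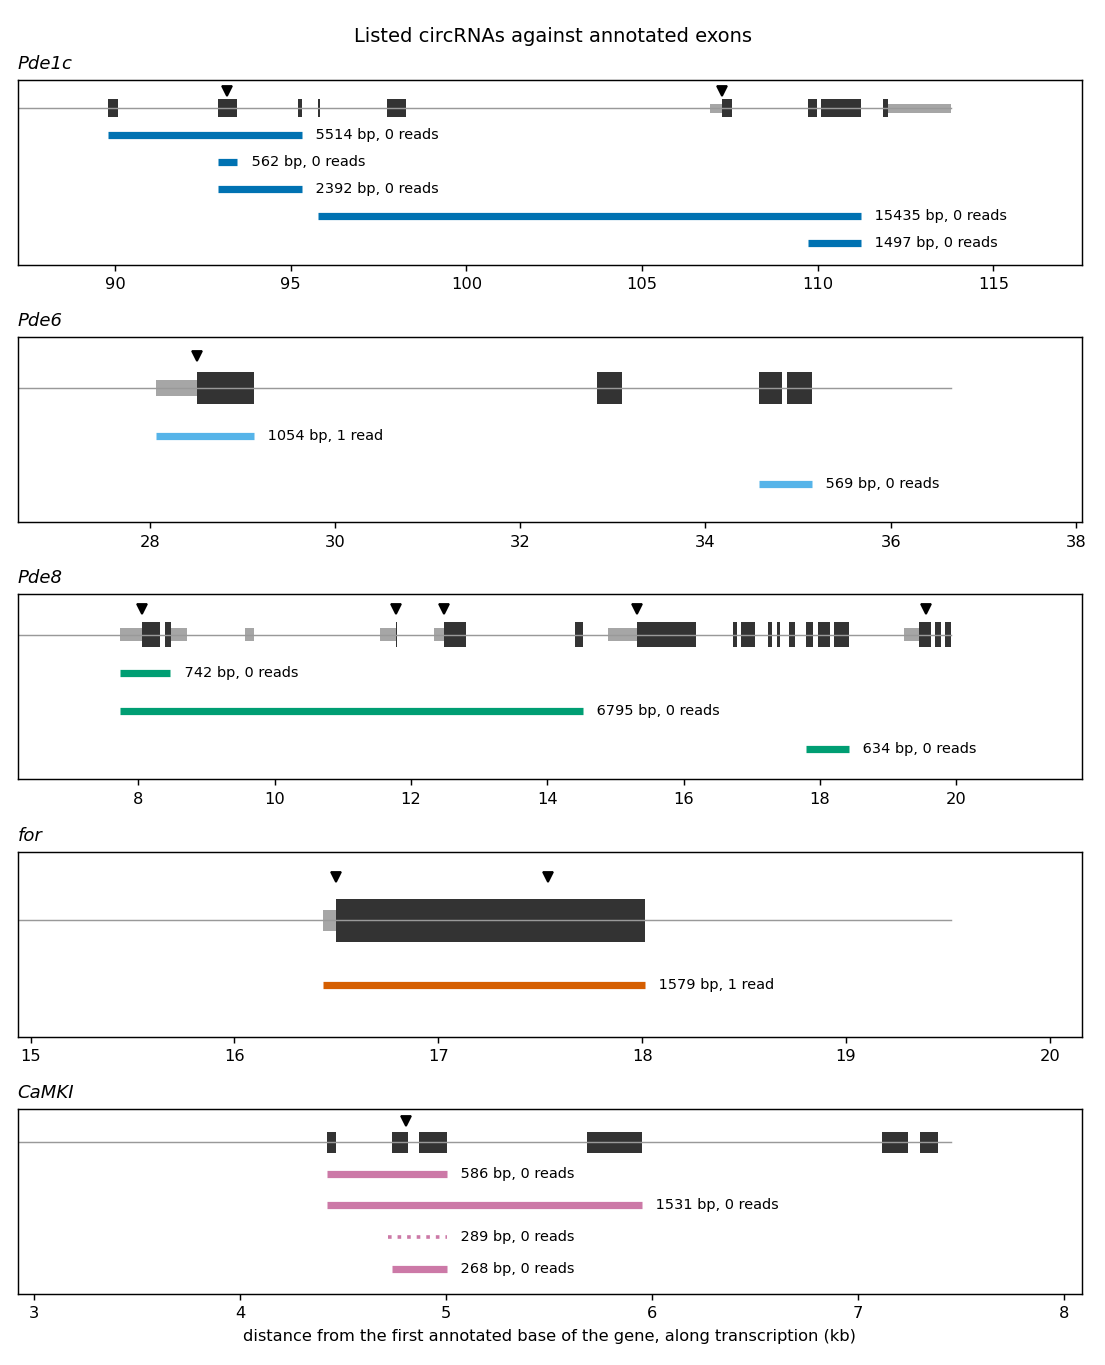
Map of the listed circRNAs (coloured bars, with span and reads over all samples) under the annotated exons of each gene, drawn along transcription in kb from the first annotated base of the gene. Coding exons are tall dark boxes, untranslated exon parts low grey boxes, and triangles mark start codons of any transcript. The 1054 bp circRNA of Pde6 and the 1579 bp circRNA of foraging (for), with 1 read each, each cover a single exon with a start codon. So does the 562 bp circRNA of Pde1c, with 0 reads, in part of its transcripts. The dotted 289 bp circRNA of CaMKI matched no exons and is placed by the end it shares.

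Pde1c had the most circRNAs of the 5 genes. Its 5 circRNAs, all with 0 reads, compare with fewer than 5 in 91.5% of the host genes in the table. They fall into 2 families of rings that share ends. The upstream family has 3 rings of 562, 2392 and 5514 bp, on chromosome 2L from 11835090 to 11835651, from 11833260 to 11835651 and from 11833260 to 11838773. The smallest is a single exon, the middle one adds the next exon, and the largest adds the exon before. The downstream family has 2 rings, of 1497 bp from 11817353 to 11818849 and of 15435 bp from 11817353 to 11832787.

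The 2 families of Pde1c lie side by side, with a gap of 472 bases that is a single annotated intron. The upstream rings hold a start codon in 3 of the 8 transcripts that contain their exons. In those transcripts the rings carry 266, 266 and 557 untranslated bases and end at codon 99 for the smallest and codon 137 for the others. In the other 5 transcripts the same exons are internal coding exons. The downstream rings hold no start codon in any transcript. The 1497 bp ring carries 2 exons with 1391 coding bases, between 39.5% and 76.6% of the coding sequence by transcript, and it ends 92.0% to 95.9% of the way along it. The 15435 bp ring carries 3 or 4 exons with 1454 or 2009 coding bases.

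In complete transcripts no other placed ring of the 5 genes ended more than 63.8% of the way along a coding sequence. The downstream Pde1c rings so reach the end toward which the catalytic domain of such enzymes lies, although no domain was located here. They had 0 reads, as did the upstream rings. Other annotated genes overlap the genomic spans of 4 of the 5 Pde1c rings. The gene esc, a Polycomb group gene, lies inside the span of the 15435 bp ring, and 7 annotated genes or elements overlap that of the 5514 bp ring. The table names Pde1c as the host of all 5.

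Pde8 had 3 circRNAs with 0 reads on chromosome 2R. Rings of 742 bp, from 19552817 to 19553558, and of 6795 bp, from 19552817 to 19559611, start at the same base. Both hold the start codon in every transcript that contains their exons, preceded by 327 untranslated bases. The shorter holds 352 coding bases in 2 exons and the longer 465 coding bases in 3 exons, so the added exon of 113 bases follows an intron of 5940 bases. The third ring, of 634 bp from 19562878 to 19563511, holds 3 internal coding exons with 492 bases. By transcript it ends 45.8% to 58.5% of the way along the coding sequence.

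The 4 circRNAs of CaMKI, also with 0 reads, lie within 1531 bp on chromosome 4. The largest runs from 470550 to 472080, and a ring of 586 bp from 470550 to 471135 shares its first base. Rings of 289 bp, from 470847, and of 268 bp, from 470868, end at the same base as the 586 bp ring. Each of the 3 smaller rings therefore lies inside the next larger one. The starts of the 289 and 268 bp rings are 21 bases apart, and the 289 bp ring was the only one of the 15 whose span equalled no block of annotated exons. The other 3 hold 214 to 524 exon bases, the smallest total of the 5 genes being the 214 bases of the 268 bp ring.

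In 3 of the 5 CaMKI transcripts the 1531 bp ring holds codons 84 to 259 of 405, or 43.1% of the coding sequence, and the 586 bp ring holds codons 84 to 170. The larger of these stretches ends 63.8% of the way along the coding sequence, and no domain was located in either here. The 268 bp ring holds a start codon in 1 of 5 matching transcripts, a short form of 284 codons. In the other 4 it is internal. None of the 14 rings with matched exons held a stop codon in any transcript.

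**Figure D2:**
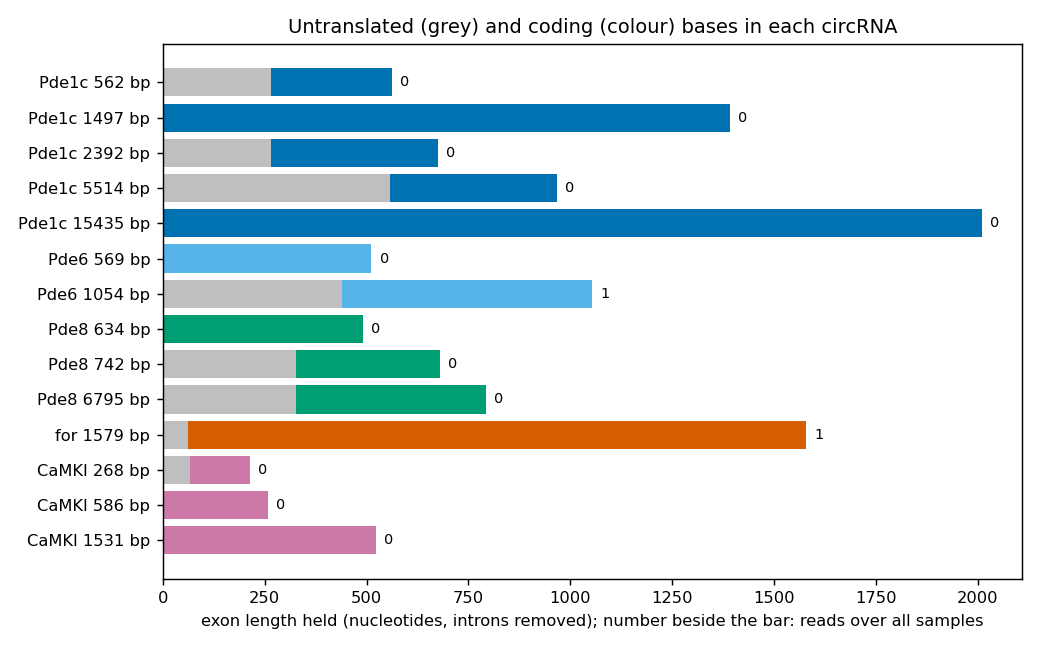
Exon bases held by the 14 circRNAs whose span matched annotated exons, in nucleotides with introns removed. Grey is untranslated and colour is coding sequence, taken from a transcript with the start codon inside the ring where there is one and otherwise from the longest match, and the number beside each bar is its reads. The ring of foraging holds 1517 coding bases and that of Pde6 with a read holds 615, while 2009 coding bases of Pde1c had 0 reads.

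**Figure D3:**
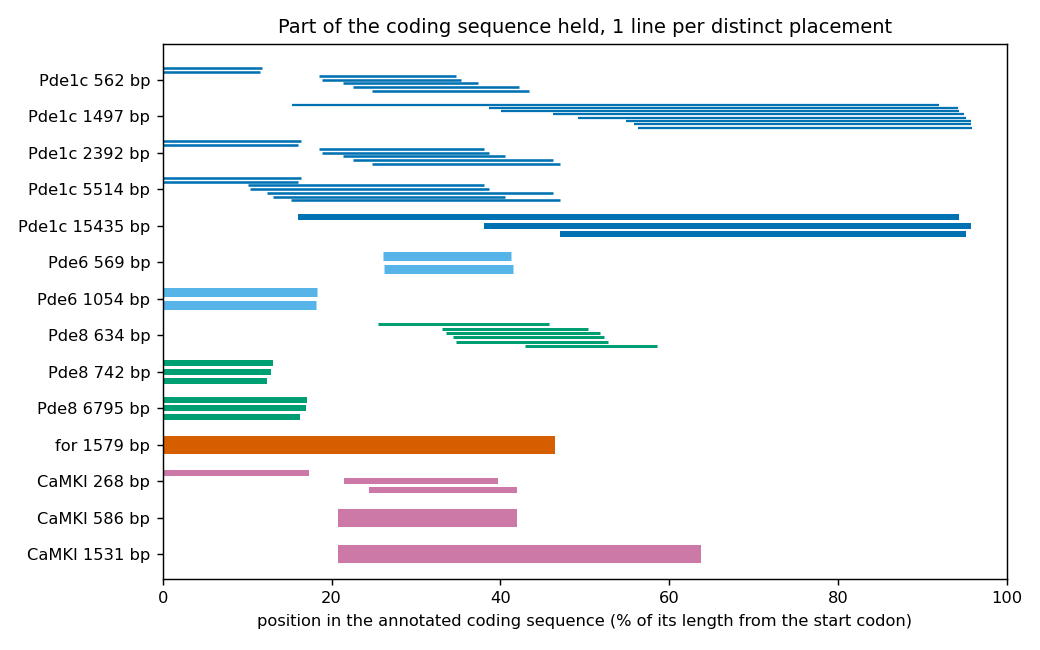
Part of the annotated coding sequence that each circRNA holds, in percent of its length from the start codon, with 1 line per distinct placement among complete transcripts. The ring of foraging covers the first 46.5% and the Pde6 ring with a read the first 18.2% to 18.3%, and the 1497 and 15435 bp rings of Pde1c reach farthest, to between 92.0% and 95.9%.

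Across the 5 genes, 14 of 15 circRNAs (93.3%) had a span equal to an annotated exon or run of exons, against 76.2% of all listed circRNAs. A start codon lay inside 8 of the 14, or 57.1%, against 37.7% of the 1921 placed circRNAs in the table. These 8 were 3 of Pde1c, 2 of Pde8 and 1 each of Pde6, foraging and CaMKI. The 3 of Pde1c overlap and hold the same start codon, as do the 2 of Pde8, so the 8 are not separate start codons. When the start codon had to lie inside in every matching coding transcript, 4 of 14 remained (28.6%), against 29.0% in the table. Those 4 were the Pde6 ring with a read, the ring of foraging and the 2 overlapping rings of Pde8. No test was made of these shares, since the genes were chosen with earlier results known.

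Shared ends were common in these genes. Of the 15 circRNAs, 11 had an end in common with another circRNA of the same gene, namely all 5 of Pde1c, all 4 of CaMKI and 2 of Pde8. Among host genes with several circRNAs this was 11 of 14, or 78.6%, against 61.2% over the table. A larger listed ring of the same gene enclosed 7 of the 14 (50.0%), against 42.4%. The Pde6 ring with a read shared no end with the other Pde6 ring and was not enclosed by it. Foraging had only 1 listed ring, so for its ring neither was possible.

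Genomic spans ranged from 268 bp in CaMKI to 15435 bp in Pde1c, with a median of 1054 bp, against 1042 bp for all listed circRNAs. The 2 rings with a read, at 1054 and 1579 bp, were near the middle of the table, with 50.6% and 63.8% of listed circRNAs of the same span or shorter. Introns made up most of the longest spans. Exons were 9.42% to 13.0% of the 15435 bp ring of Pde1c and 11.7% of the 6795 bp ring of Pde8, but 100% of the rings of foraging, of Pde6 with a read and of the 562 bp ring of Pde1c. With introns removed, the median was 677.5 bases, against 639.5 for placed circRNAs. Whether introns are removed from the rings was not measured.

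**Figure D4:**
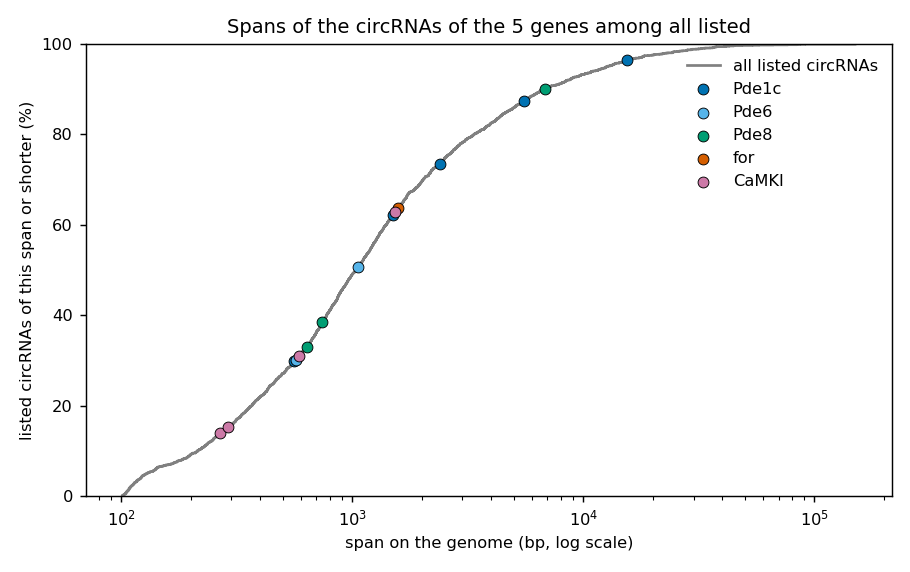
Genomic spans of the 15 circRNAs (points, coloured by gene) on the cumulative curve of all 2563 listed circRNAs, with span in bp on a log axis and the percent of listed circRNAs of that span or shorter. The points run from 268 bp (13.9%) to 15435 bp (96.4%), with the Pde6 and foraging (for) rings that had a read at 50.6% and 63.8%.

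The ring length matters for reading around a circle, since a frame returns to itself only where the exon bases divide by 3. The exon bases divided by 3 in 2 of the 14 placed rings (14.3%), against 35.0% in the table. These were the 6795 bp ring of Pde8, with 792 bases, and the 634 bp ring of Pde8, with 492 bases. The rings of foraging (1579 bases) and of Pde6 with a read (1054 bases) did not divide by 3. Stop codons in other frames were not examined.

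Long introns preceded several of these rings. The intron before the Pde6 ring with a read has 24144 bp and is the longest annotated in that gene, whose median intron has 465.5 bp. The start-codon rings of Pde8 follow its longest intron, of 7279 bp, in part of their transcripts. The 5514 bp ring of Pde1c follows its longest, of 72912 bp, and the 268 bp ring of CaMKI its longest, of 3006 bp, likewise in part of their transcripts. The ring of foraging follows an intron of 5338 or 14752 bp, while the longest intron of the gene has 20864 bp.

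In 4 of the 5 genes the longest intron therefore directly preceded a listed ring, and in 0 of 5 it directly followed one. Over all 961 host genes with a placed circRNA and several introns, these shares were 49.7% and 28.5%. Among hosts with 2 to 5 placed circRNAs, as all of the 5 genes except foraging have, they were 52.1% and 33.5%. Taking for each ring the shortest such intron in any matching transcript, the median before the 14 rings was 2759.5 bp, against 2748 bp in the table. The median after them was 1097.5 bp, against 2004.5 bp. These medians count an intron once per ring, so the 646 bp intron after both downstream Pde1c rings counts for each. By transcript, the intron after the 2392 and 5514 bp rings of Pde1c had 472 to 14410 bp. Again by the shortest match, the shortest introns before a ring were 149 bp (634 bp ring of Pde8) and 273 bp (268 bp ring of CaMKI). The next was 472 bp, before the 15435 bp ring of Pde1c. The CaMKI ring thus follows an intron of 273 bp in 3 of 5 transcripts and one of 3006 bp in the other 2.

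**Figure D5:**
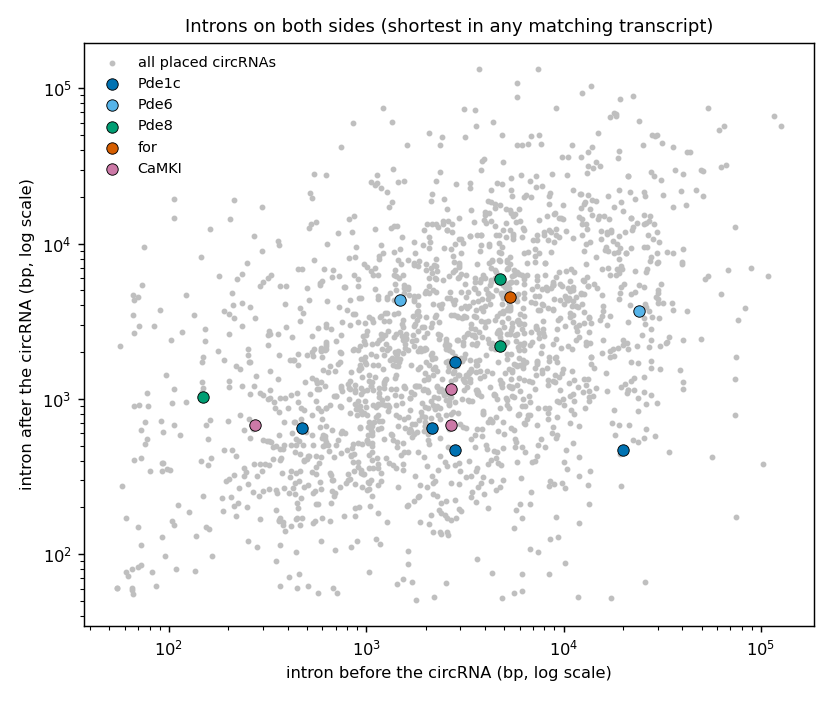
Length of the intron before (horizontal) and after (vertical) each placed circRNA, in bp on log axes, as the shortest in any matching transcript. Grey points are all placed circRNAs and coloured points those of the 5 genes. The 2 coloured points farthest to the right are the Pde6 ring with 1 read, at 24144 bp before, and the 5514 bp Pde1c ring with 0 reads, at 20117 bp before.

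The other genes of cyclic nucleotide and calcium signalling were taken from a list of 48. Most were genes of phosphodiesterases, cyclases, kinases, phosphatases, phospholipases and calcium channels, and others such as Epac, Cam and SERCA were included. Of the 48, 22 had 43 listed circRNAs and 26 had none in the rows analysed here. No read fell on any of the 43 (0%, exact upper limit 8.22%), and the 4.76% of all listed circRNAs with a read lies inside this limit. Plc21C, a phospholipase C gene, had 6 circRNAs. Gycbeta100B, a subunit of soluble guanylate cyclase, and Pde11, a further phosphodiesterase, had 4 each. The learning gene dnc, a cAMP phosphodiesterase, had 3, and the adenylate cyclase gene Ac13E had 2. The 58 circRNAs of these 27 genes together had 2 reads, those on Pde6 and foraging, beside 4.76% of all listed circRNAs with a read. The exact intervals of the 5 genes (1.66% to 40.5%) and of the list (0% to 8.22%) overlap. The 2 reads therefore do not set Pde6 and foraging apart from the list.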

How the data were processed

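Per the file headers, reads of the 4 libraries had ribosomal RNA removed. The submitters' processing notes name the build dm3 and cutadapt 1.9.1, a trimmer, but neither the aligner nor the circRNA caller is given in the sources used here. The deposited values are the authors' whole-number counts per circRNA over all samples, not normalized, 230 in total. The 4 columns per library could not be tied to samples by name and were not used, so edgeR was not run and the planned detergent comparison was not made. The labels do not say whether libraries came from separate collections of flies.

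Current symbols came from NCBI's gene table, which matched 2530 of 2563 accessions. The first coordinate was raised by 1. Spans were compared, by exact length, with exon blocks of the host gene in Ensembl release 115 on BDGP6, without converting coordinates. A span matching several blocks was not placed (32 circRNAs, none of the 5 genes). Adding 1 to 11 bases left 1.09% to 2.46% of spans matching and 0 or 1 of the 15. In the 4 genes with several circRNAs, matched blocks kept the distances that the table gives. Tested on simulated data, 1 of 500 random spans was matched by chance. Intervals of counts and shares are 95% exact Poisson or Clopper-Pearson. That of the median span runs between 2 of the observed spans, 569 and 2392 bp. Intervals over circRNAs take them as independent, although some share ends or exons. The 5 genes and the lists were chosen with earlier results of these data known. All circRNAs of the 5 genes are named, and of the list of 48 those genes with a read and the 5 with most circRNAs, ties in alphabetical order. Python 3.11.15, pandas 2.3.3, numpy 2.4.6, scipy 1.17.1 and matplotlib 3.10.9 were used.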

Additional observations from a re-analysis of the deposited data

How the results depend on the processing

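The number of circRNAs with a read fell from 2 to 0 with at least 2 reads, since both rest on 1 read, and 1.01% of all listed circRNAs had at least 2. The number holding a start codon went from 8 to 4 when every matching coding transcript had to place it inside, as the exons of Pde1c and CaMKI are internal in other transcripts. The other 13 of 15 alternatives left their result within 1.5 times its value or, for the median span, within its interval of 569 to 2392 bp. They covered names by symbol only, host genes, ends within 5 bases, spans within 1 base and circRNAs at exon ends only (median span 1275.5 bp). Several of these could not move, since symbols alone find the same 15 circRNAs, none of the 15 matched several blocks and the list of 48 already had 0 reads. No paired analysis was possible because the columns per library, which no label ties to a buffer or replicate, were left unused, and for the same reason no library was left out. The search for catalytic motifs was not run, since no protein sequences were used here. Depth limits every statement on reads.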

Other observations

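Among the other signalling genes with several rings, 14 of 33 rings (42.4%) had an end in common with another of the same gene, below the 61.2% in the table, and none had a read. Pde11 and Plc21C were among the genes with such rings, as were Ac3, Epac, Gycbeta100B and dnc, of which Ac3 and Epac are named after their values were seen. The 4 rings of Pde11, a phosphodiesterase gene on chromosome 2L, overlap one another, and the longest encloses the rings that share an end with it. The 4 run from 18538030 to 18540768, from 18539523 to 18542003, from 18539523 to 18543715 and from 18540629 to 18543715. All 4 matched annotated exons without a start codon. Plc21C, also on 2L, had 3 rings that start at 317743, spanning 378, 8082 and 16515 bp, and 3 of its 6 rings held a start codon. Of the 40 placed rings of this list, 18 (45.0%) held a start codon and 5 (12.5%) were single exons, against 37.7% and 19.2% in the table.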
